A study of Mus musculus with 2 samples.

Results

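The 10 genes described here, coreceptors and exhaustion-linked factors, were followed through a pool of mouse CD4+ T cells: Pdcd1, Lag3, Tigit, Ctla4, Havcr2, Btla, Cd160, Icos, Tox and Tox2. They were taken by gene symbol from the gene list of the expression library, and all 10 were found once among 55487 genes. The cells were CD4+ T cells sorted from visceral adipose tissue (VAT, 34000 cells) and spleen (32000 cells) of C57BL/6 Foxp3.Cre-YFP mice. In these animals a Cre recombinase driven by the Foxp3 locus acts in regulatory T cells (Tregs), so Bmal1, a core circadian clock factor, was kept (Treg-bmal1 WT) or deleted (Treg-bmal1 KO) in Tregs, while conventional T cells have no Foxp3-driven Cre. Mice lived under a reversed light cycle and were sampled at ZT0 or ZT12 (zeitgeber time, hours after lights on). Cells of each genotype, time and tissue were stained with their own hashtag antibody and then pooled into 1 expression library and 1 hashtag library.

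Counts were present for hashtags 1 to 6, whereas both genotypes, both times and both tissues together would make 8 combinations. Whether combinations are missing or share a tag could not be read from the labels, which do not say what tissue, genotype or time a hashtag marks. Hashtags are therefore compared by number, none is assigned to a condition, and differences between genotypes or times are not analysed here. They are not replicates, so no test or p-value is given. Intervals are exact 95% Poisson intervals for levels and exact 95% Clopper-Pearson intervals for shares. They cover counting error only.

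These genes encode brakes and switches of T cell activation. PD-1 (Pdcd1), CTLA-4, BTLA, LAG-3, TIGIT, TIM-3 (Havcr2) and CD160 are surface receptors that can dampen signals from the T cell receptor or from CD28. ICOS belongs to the CD28 family like CTLA-4 and PD-1 but is costimulatory, not inhibitory. TOX and TOX2 are HMG-box transcription factors: TOX is known from T cell exhaustion, and both are known from follicular helper T (Tfh) cells. CTLA-4 is constitutively made by Tregs, and adipose tissue holds a Treg type marked by the IL-33 receptor ST2 (Il1rl1), Areg and Klrg1.

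The 6 antibody-borne tags that split the pool are shown because every value by hashtag rests on telling them apart. Each pair of tags differed at 8 to 14 of the 15 bases.
Hashtag 1: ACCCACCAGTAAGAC
Hashtag 2: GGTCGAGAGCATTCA
Hashtag 3: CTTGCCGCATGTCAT
Hashtag 4: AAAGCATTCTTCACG
Hashtag 5: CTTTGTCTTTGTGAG
Hashtag 6: TATGCTGCCACGGTA

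The expression library held 22960 barcodes and 96923402 UMIs (unique molecular identifiers, each counting 1 captured RNA molecule). Of 16431 filtered cells with a hashtag call, 15128 (92.1%) passed the T cell gate, between 1537 and 3767 for each hashtag. Their median depth was 2822 to 3500 UMIs by hashtag. These T cells held 9688 UMIs of Cd4, 11 of Cd8a and 612 of Cd8b1. T cells were placed in 15 gates by marker genes, none of which is among the 10 genes described. A name such as "Tfh-type" says only that a cell held UMIs of the gate's markers, and each cell was put in the first gate it met. Barcodes with endothelial markers served as a reference for stray RNA, but 223 of 242 (92.1%) also held T cell receptor complex UMIs, and 325 of 333 macrophage-type barcodes did, so this reference itself holds T cell RNA.

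Positions are those of RefSeq on GRCm38.p6, the same assembly as the mm10 build named in the submitters' processing notes. Ctla4 (chromosome 1, 60909025 to 60915832) and Icos (chromosome 1, 60960773 to 61000322) are neighbours 44.9 kb apart, and Pdcd1 lies farther along the same chromosome (94038305 to 94052553). Lag3 is on chromosome 6 (124904359 to 124912434), Cd160 on chromosome 3 (96798763 to 96829351) and Havcr2 on chromosome 11 (46454931 to 46481255). Btla (45223705 to 45252895) and Tigit (43626137 to 43665125) are both on chromosome 16. Tox spans 305205 bases of chromosome 4 (6686353 to 6991557) and Tox2 121115 bases of chromosome 2 (163203058 to 163324172). Tigit overlaps Zbtb20 and the microRNA gene Mir568, and Tox overlaps the long noncoding RNA Gm11802, so their counts may include reads of the overlapping gene.

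Promoter windows of 250 bases upstream of a transcription start were found in RefSeq (GRCm38.p6) for 7 of the 10 genes, 12 windows in all. Pdcd1 and Tox2 are shown because they had the largest ratios in Tfh-type cells, and Ctla4 because its level over all T cells differed most between hashtags. Capitals mark the searched motifs, read on both strands: GGAAA, the core bound by NFAT factors, and CTTTGAT, bound by TCF factors. The GGAAA core was in 6 of the 12 windows and in 55.6% of 32851 mouse promoter windows, so its share here is near that of all promoters. CTTTGAT was in windows 4 and 5 of Tox2 alone, which are shifted by 1 base, and in 3.21% of all windows. Windows 1 to 3 of Tox2 held none of the motifs searched.
Pdcd1, chr1:94052554-94052803, minus strand: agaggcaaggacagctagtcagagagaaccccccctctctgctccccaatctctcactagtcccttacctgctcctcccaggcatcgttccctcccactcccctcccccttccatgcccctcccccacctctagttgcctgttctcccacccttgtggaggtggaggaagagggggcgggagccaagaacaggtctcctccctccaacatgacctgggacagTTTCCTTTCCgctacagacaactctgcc
Ctla4, chr1:60908775-60909024, plus strand: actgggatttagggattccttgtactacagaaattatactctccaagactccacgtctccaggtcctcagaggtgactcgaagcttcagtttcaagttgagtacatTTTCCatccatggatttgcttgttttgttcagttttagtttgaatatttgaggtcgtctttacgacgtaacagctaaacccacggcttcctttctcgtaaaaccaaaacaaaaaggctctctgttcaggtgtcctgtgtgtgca
Tox2, chr2:163225203-163225452, plus strand, window 4 of 5: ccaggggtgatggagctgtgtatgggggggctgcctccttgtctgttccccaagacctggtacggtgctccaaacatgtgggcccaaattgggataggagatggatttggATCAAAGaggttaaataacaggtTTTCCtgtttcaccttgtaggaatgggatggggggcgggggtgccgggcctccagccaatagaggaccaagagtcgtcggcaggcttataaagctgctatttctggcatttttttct
The clock E-box CACGTG, to which BMAL1 binds with CLOCK, was in none of the 12 windows, against 6.02% of all windows. The AP-1 motif TGANTCA was found in the Havcr2 window only, against 6.75% of all windows. A match or its absence describes the letters of these windows and says nothing of binding.

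The level of a gene is given as UMIs per 1000000 UMIs of the cells (CPM). Pdcd1 was highest in Tfh-type cells. Of the 114 cells in this gate, 69 carried hashtag 5 and 39 hashtag 6. Their Pdcd1 level was 368 CPM (301 to 445) in hashtag 5 and 325 CPM (243 to 425) in hashtag 6, where the gate held fewer than 200000 UMIs. Next came proliferating cells at 73.7 CPM (64.5 to 83.8) and Foxp3+ ST2-type Tregs at 71.2 CPM (62.8 to 80.5), whose intervals overlapped. Foxp3-undetected ST2-type cells had 56.6 CPM (52.6 to 60.8), below both of these gates with no overlap. Other Foxp3+ cells (55.9 CPM), Gzmk/Eomes-type cells (50.5 CPM) and FR4/CD73-type cells (48.3 CPM) overlapped with them and with each other, and the 17 Il10/Cyp11a1-type cells gave only 4 UMIs. Naive-type cells were lowest, at 4.86 CPM (3.36 to 6.79). Both Tfh-type intervals thus stood above that of every other gate.

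**Figure D1:**
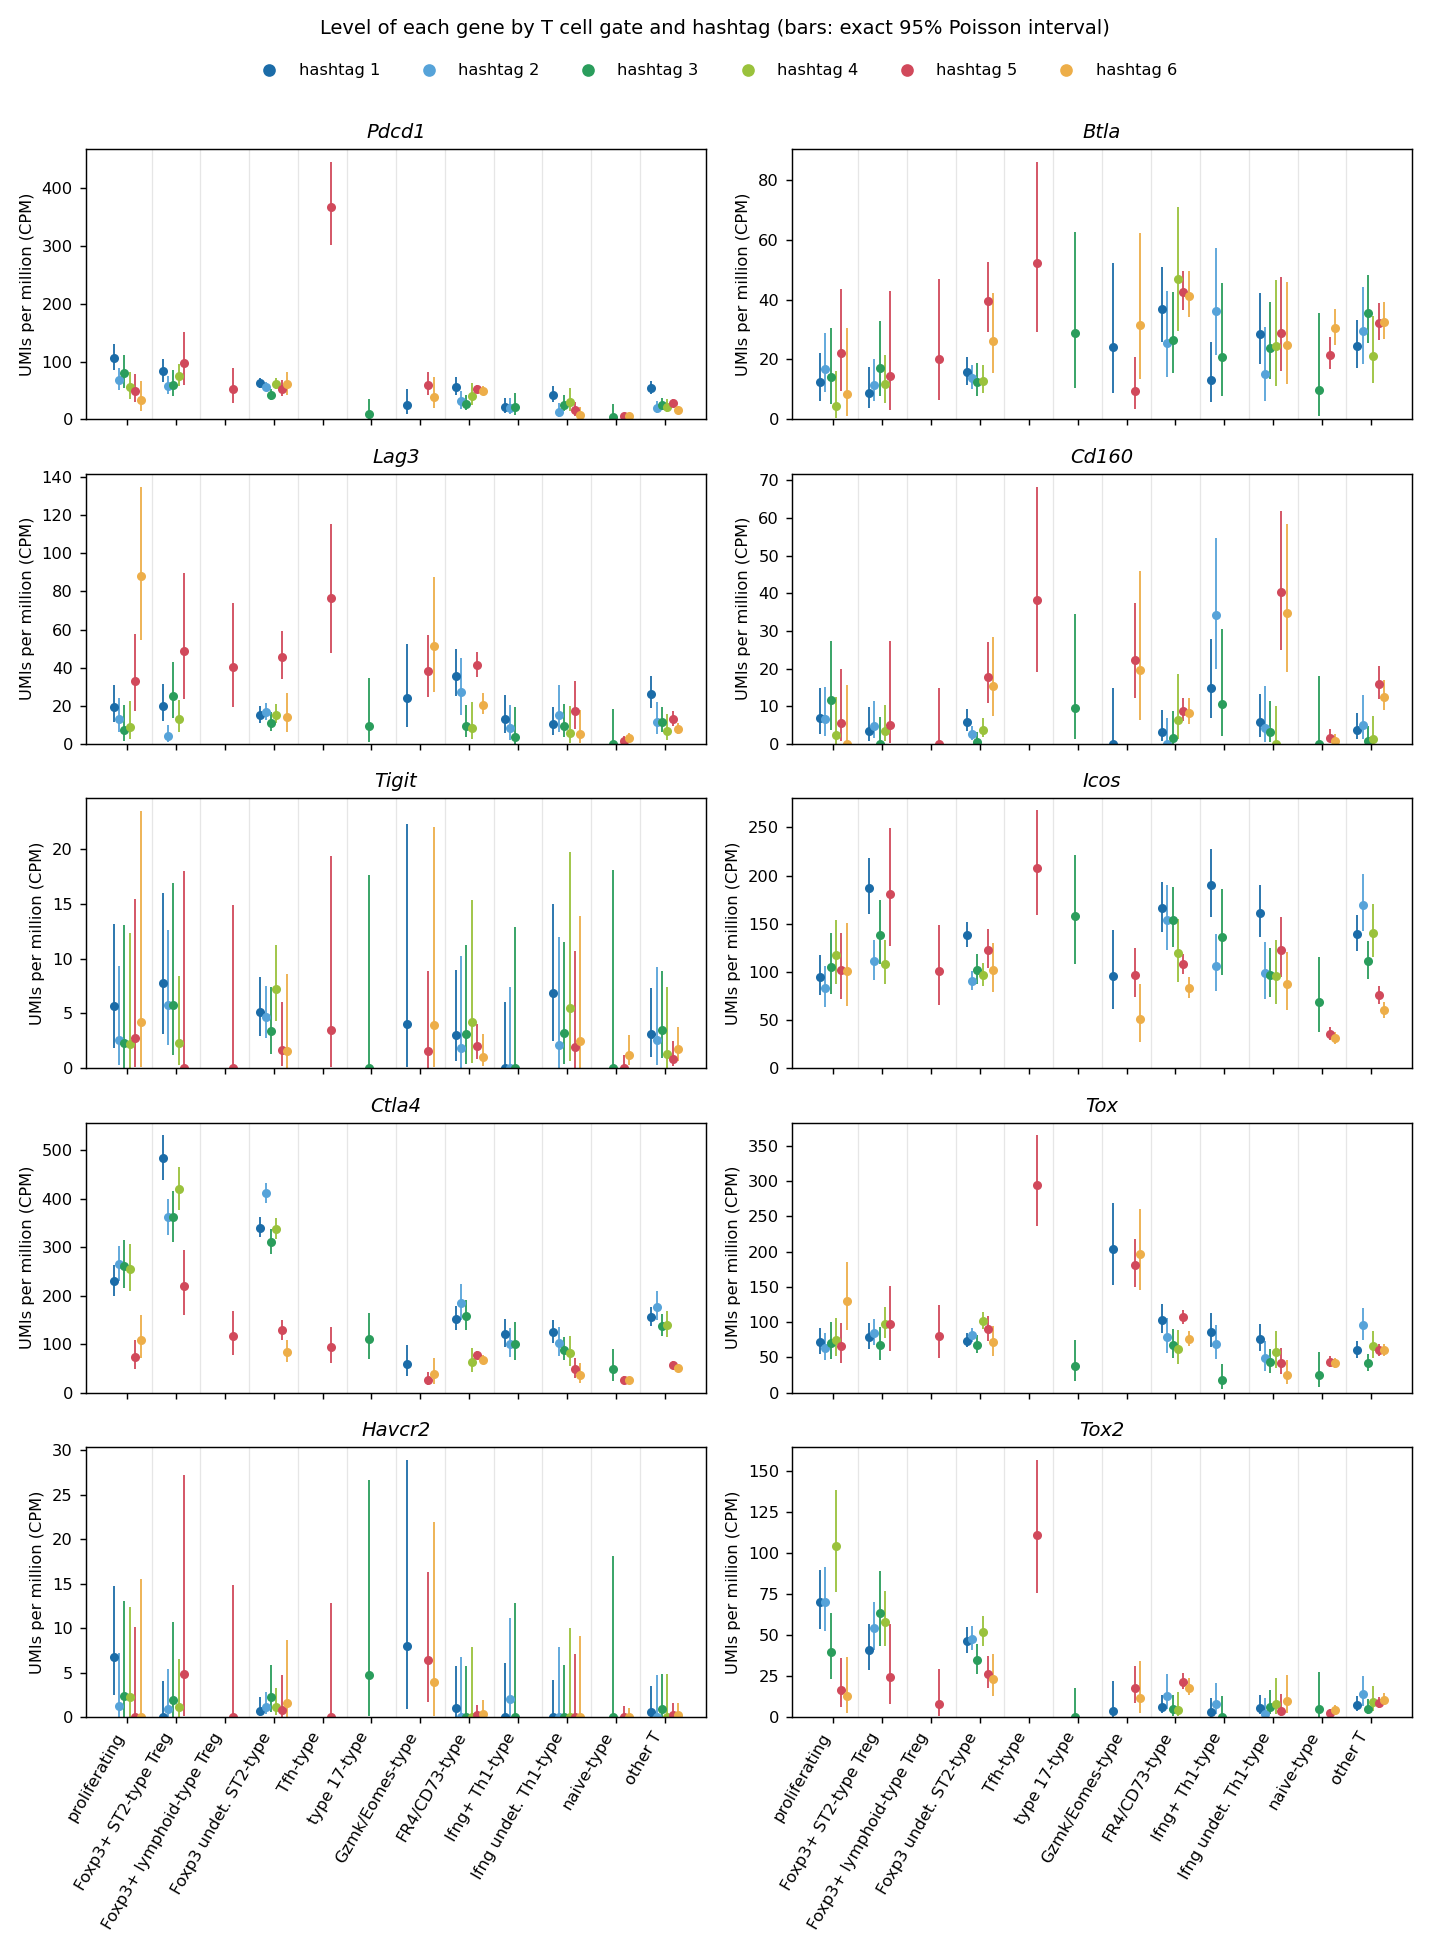
Level of each of the 10 genes (vertical axes, CPM on linear scales that differ between panels) in T cell gates (horizontal axis) for each hashtag with at least 200000 UMIs in the gate. Points are hashtags and bars exact 95% Poisson intervals. Pdcd1, Tox and Tox2 peak in the Tfh-type point of hashtag 5 (368, 295 and 111 CPM), and Ctla4 in the ST2-type gates of hashtags 1 to 4 (311 to 483 CPM).

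Ctla4, the high-affinity competitor of CD28 for CD80 and CD86, had its highest level among gates of more than 20 cells in Foxp3+ ST2-type Tregs. The 17 Il10/Cyp11a1-type cells, at 450 CPM (299 to 650), could not be told from them. In this gate it reached 483 CPM (439 to 531) in hashtag 1, 361 CPM in hashtag 2, 361 CPM in hashtag 3, 420 CPM in hashtag 4 and 220 CPM (160 to 294) in hashtag 5. Hashtag 5, with 35 cells, lay below the other 4. Foxp3-undetected ST2-type cells followed at 324 CPM (314 to 334) over all hashtags, with other Foxp3+ cells at 338 CPM (278 to 408) not separable from them. The interval of other Foxp3+ cells also overlapped that of Foxp3+ ST2-type Tregs over all hashtags (393 CPM, 373 to 414). Proliferating cells held 219 CPM (203 to 236). Foxp3+ lymphoid-type Tregs, at 141 CPM (111 to 176), type 17-type cells, at 129 CPM, and Tfh-type cells, at 114 CPM, had overlapping intervals. Naive-type cells had 29.1 CPM (25.3 to 33.4), and NK-receptor type cells, at 34.7 CPM (16.7 to 63.9), could not be told from them.

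Icos, the costimulatory neighbour of Ctla4, varied less between gates. It was found at 196 CPM (150 to 250) in other Foxp3+ cells, 178 CPM (143 to 220) in Tfh-type cells and 160 CPM (135 to 188) in type 17-type cells, which overlapped. Ifng+ Th1-type cells held 147 CPM and Foxp3+ ST2-type Tregs 139 CPM. Naive-type cells were again lowest, at 36.6 CPM (32.2 to 41.3).

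Btla and Cd160 encode receptors that share the ligand HVEM (Tnfrsf14), and their order over gates differed from that of Ctla4. Btla was at 60.2 CPM (40.3 to 86.4) in Tfh-type cells and 39.7 CPM (35.8 to 44.0) in FR4/CD73-type cells, and at 12 CPM (8.66 to 16.1) in Foxp3+ ST2-type Tregs. Naive-type cells, at 25.6 CPM (22.0 to 29.6), had more Btla than Foxp3+ ST2-type Tregs, whereas the point values of the other 6 inhibitory receptors went the other way between these gates. Cd160 was highest in NK-receptor type cells, 163 CPM (120 to 217) from 47 UMIs in 81 cells. Tfh-type cells, at 24.9 CPM (12.9 to 43.5), Ifng+ Th1-type cells, at 24.6 CPM (18.0 to 32.9), type 17-type cells, at 19.5 CPM, and Gzmk/Eomes-type cells, at 16.8 CPM, were not separable from each other. Naive-type cells had 1.29 CPM of Cd160.

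Lag3, an MHC class II-binding receptor, was at 72.6 CPM (50.6 to 101) in Tfh-type cells, and at 80.3 CPM from only 5 UMIs in the 17 Il10/Cyp11a1-type cells. Other Foxp3+ cells (34.1 CPM), Gzmk/Eomes-type cells (32.9 CPM) and FR4/CD73-type cells (29.8 CPM) followed with overlapping intervals. Foxp3+ ST2-type Tregs held 17 CPM (13 to 21.8) and naive-type cells 2.57 CPM (1.52 to 4.06). Tigit, a receptor for CD155 (Pvr), was scarce, with 157 UMIs in all T cells or 2.78 CPM. Its level was 5.01 CPM (2.97 to 7.92) in Foxp3+ ST2-type Tregs and 4.70 CPM (3.60 to 6.04) in Foxp3-undetected ST2-type cells, against 0.571 CPM (0.156 to 1.46) in naive-type cells. Havcr2 was scarcer still, with 46 UMIs in all T cells, 7 of them in the 387 Gzmk/Eomes-type cells. The 46 UMIs do not separate most gates, and macrophages, a known source of Havcr2 RNA, gave 4 UMIs in 333 barcodes.

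Among gates of more than 20 cells Tox and Tox2 shared their highest but not their order below it. Tox was at 295 CPM (236 to 365) in Tfh-type cells of hashtag 5 and 276 CPM (201 to 369) in those of hashtag 6. The 17 Il10/Cyp11a1-type cells, at 289 CPM (171 to 457) from 18 UMIs, could not be told from Tfh-type or Gzmk/Eomes-type cells. Gzmk/Eomes-type cells, gated on at least 2 UMIs summed over the cytotoxic gene Gzmk and Eomes, came next among gates of more than 20 cells. Their Tox level was 204 CPM in hashtag 1, 182 CPM in hashtag 5 and 197 CPM in hashtag 6, and these 3 values overlapped. FR4/CD73-type cells had 90.5 CPM, the 2 ST2-type gates 84.0 and 82.1 CPM, and naive-type cells 41.7 CPM (37.1 to 46.8). Tox2 in Tfh-type cells was 111 CPM (76.0 to 157) in hashtag 5 and 178 CPM (119 to 255) in hashtag 6. Below them Tox2 was at 60.3 CPM in proliferating cells, 50.9 CPM in Foxp3+ ST2-type Tregs and 43.4 CPM in Foxp3-undetected ST2-type cells. In the Tox-rich Gzmk/Eomes-type cells Tox2 was at only 11 CPM (6.15 to 18.1), and in naive-type cells at 3.43 CPM.

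Levels were then compared within each hashtag, between a gate and the other T cells of that hashtag, so that a gate's uneven spread over hashtags does not set the ratio. A gene was called higher or lower when its median log2 ratio over hashtags was at least 1 in size and every hashtag agreed in sign, a rule of size and not a test. Hashtags needed 200000 UMIs on both sides, and genes a mean of 5 CPM, which left 8 of the 10 genes in every comparison. Tigit and Havcr2 were too low. The share of all genes called by the same rule is given as the background.

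In Tfh-type cells 6 of the 8 genes were called higher and none lower, where 15.2% of 9198 genes were called higher and 3.62% lower. This comparison rests on hashtag 5 alone. Pdcd1 had 368 against 35.4 CPM (log2 ratio 3.38), and its counting interval ran from 3.06 to 3.68. Tox2 had 111 against 13.1 CPM (3.11), Tox 295 against 79.1 CPM (1.91) and Lag3 76.4 against 24.8 CPM (1.65). Icos had 208 against 87.5 CPM (1.26). Cd160 had 38.2 against 13.7 CPM (1.54), from 11 UMIs. Btla (0.79) and Ctla4 (0.53) were not called. The median of all genes was 0.31 here, and with TMM scaling, which centred it at -0.01, 8.32% of genes were higher and 7.14% lower. Icos was no longer called with TMM (0.94), while the other 5 were. With a prior count in proportion to depth 11.8% of genes were higher and 6.71% lower, with the same 6 of these genes called. When hashtag 6 was added by halving the UMI minimum to 100000, a choice made after the data were seen, Pdcd1, Lag3, Btla, Icos, Tox and Tox2 were called and Cd160, with 1 UMI in hashtag 6, was not. The background was then 12.5% higher and 2.67% lower.

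Lists of related genes, fixed with earlier results of these data known, were run through the same rule, leaving out genes used by the gate. Since cells went to the first gate they met, genes of earlier gates (Klrg1, Ikzf2, Eomes, Nt5e, Tbx21) are low in later gates partly by construction. In Tfh-type cells 15.2% of all 9198 genes were called higher and 3.62% lower. The counts of list genes called higher there were near that share, so they do not set these lists apart. Among signalling adaptors and phosphatases 2 of 14 tested were higher in Tfh-type cells and none lower: Ptpn11, the phosphatase SHP-2 recruited by PD-1, at 260 against 55.8 CPM (2.23), and Sh2d1a, the adaptor SAP needed for Tfh help, at 365 against 153 CPM (1.26). Of factors linked to Tox and receptor expression 2 of 15 were higher, Maf (1.73) and Nfatc1 (1.11), and Prdm1, the opponent of Bcl6, met the rule for lower (-1.26) with 1 UMI in the gate, where the counting interval of the log2 ratio ran from -7.15 to 0.66. Of other inhibitory receptors 2 of 10 were higher, the ectonucleotidase Nt5e (1.51) and Cd200 (1.47). Of costimulatory genes 1 of 8 was higher, Tnfrsf4 (OX40, 1.16), and 1 lower, Cd226 (-1.19), the activating counterpart of TIGIT. Of ligands 1 of 5 was higher, Pdcd1lg2 (1.01, just over the size needed and from few UMIs). The 1 lower was Lgals3 (-1.96, from 2 UMIs, -5.33 to -0.42). These are ratios of hashtag 5 too.

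In Foxp3+ ST2-type Tregs none of the 8 genes was called, against 1.04% of 9344 genes called higher and 0.706% lower. With TMM scaling the background was 0.738% higher and 0.952% lower, and with the depth-scaled prior 0.664% and 0.995%, again with none of the 8 genes called. Ctla4 came nearest, at 399 against 179 CPM. Its log2 ratios were 1.12, 0.28, 0.91, 0.83 and 1.79 in hashtags 1 to 5, above 0 in every hashtag, with a median of 0.91. Pdcd1 (median 0.72) and Tox2 (0.64) were also above 0 in all 5 hashtags, and Btla (-0.69) and Cd160 (-0.59) below 0 in all 5. The other T cells hold the 3082 Foxp3-undetected ST2-type cells. Over all hashtags these had 324 CPM of Ctla4 (314 to 334), below the 393 CPM (373 to 414) of this gate. All T cells together had 166 CPM. Without the Foxp3-undetected ST2-type cells, a comparison added after the data were seen, Ctla4 and Tox2 were called higher and Btla lower. The background was then 3.22% higher and 1.27% lower. Ctla4 was called as well when hashtag 2 or hashtag 4 was left out.

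The called genes of the lists in this gate were Tnfrsf9 (4-1BB, 1.76) and Tnfrsf4 (1.19) among 8 costimulatory genes, and Cd200r1 (1.26) and Lilrb4a (1.10) among 9 other inhibitory receptors. All 4 were higher, where 1.04% of all 9344 genes were. No ligand (6 tested), signalling gene (14 tested) or factor (17 tested) was called.

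Foxp3+ lymphoid-type Tregs could be compared in hashtag 5 alone (58 cells). Here 1 of 8 genes was called, Cd160 as lower, against 11.5% of 9073 genes higher and 4.41% lower. TMM scaling gave 8.45% and 6.00%, and the depth-scaled prior 8.62% and 8.32%. The Cd160 call rests on 0 UMIs, whose exact interval reaches 14.9 CPM, above the 14.5 CPM of the other T cells, so no difference was detectable at this depth. Ctla4 had 117 against 65.6 CPM (0.86) and Lag3 40.3 against 25.6 CPM (0.72), neither called. Of 6 ligands 3 met the rule for higher: Cd274 (PD-L1, 1.51), Pdcd1lg2 (PD-L2, 1.45) and Cd86 (1.30). They rest on 10, 7 and 5 UMIs in the gate. Their counting intervals ran from 0.36 to 2.35, from 0.013 to 2.43 and from -0.48 to 2.43. Of 17 factors Nr4a2 (2.86) and Ikzf2 (Helios, 1.42) were higher, and Eomes, with 0 UMIs, and Prdm1 (-1.04) met the rule for lower. Prdm1 had 1 UMI there and a counting interval from -6.93 to 0.87. Klrg1, also at 0 UMIs, was the 1 of 10 other inhibitory receptors called, as lower, and cells with Foxp3 and Klrg1 go to the ST2-type gate by rule. None of 8 costimulatory and 14 signalling genes was called.

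**Figure D2:**
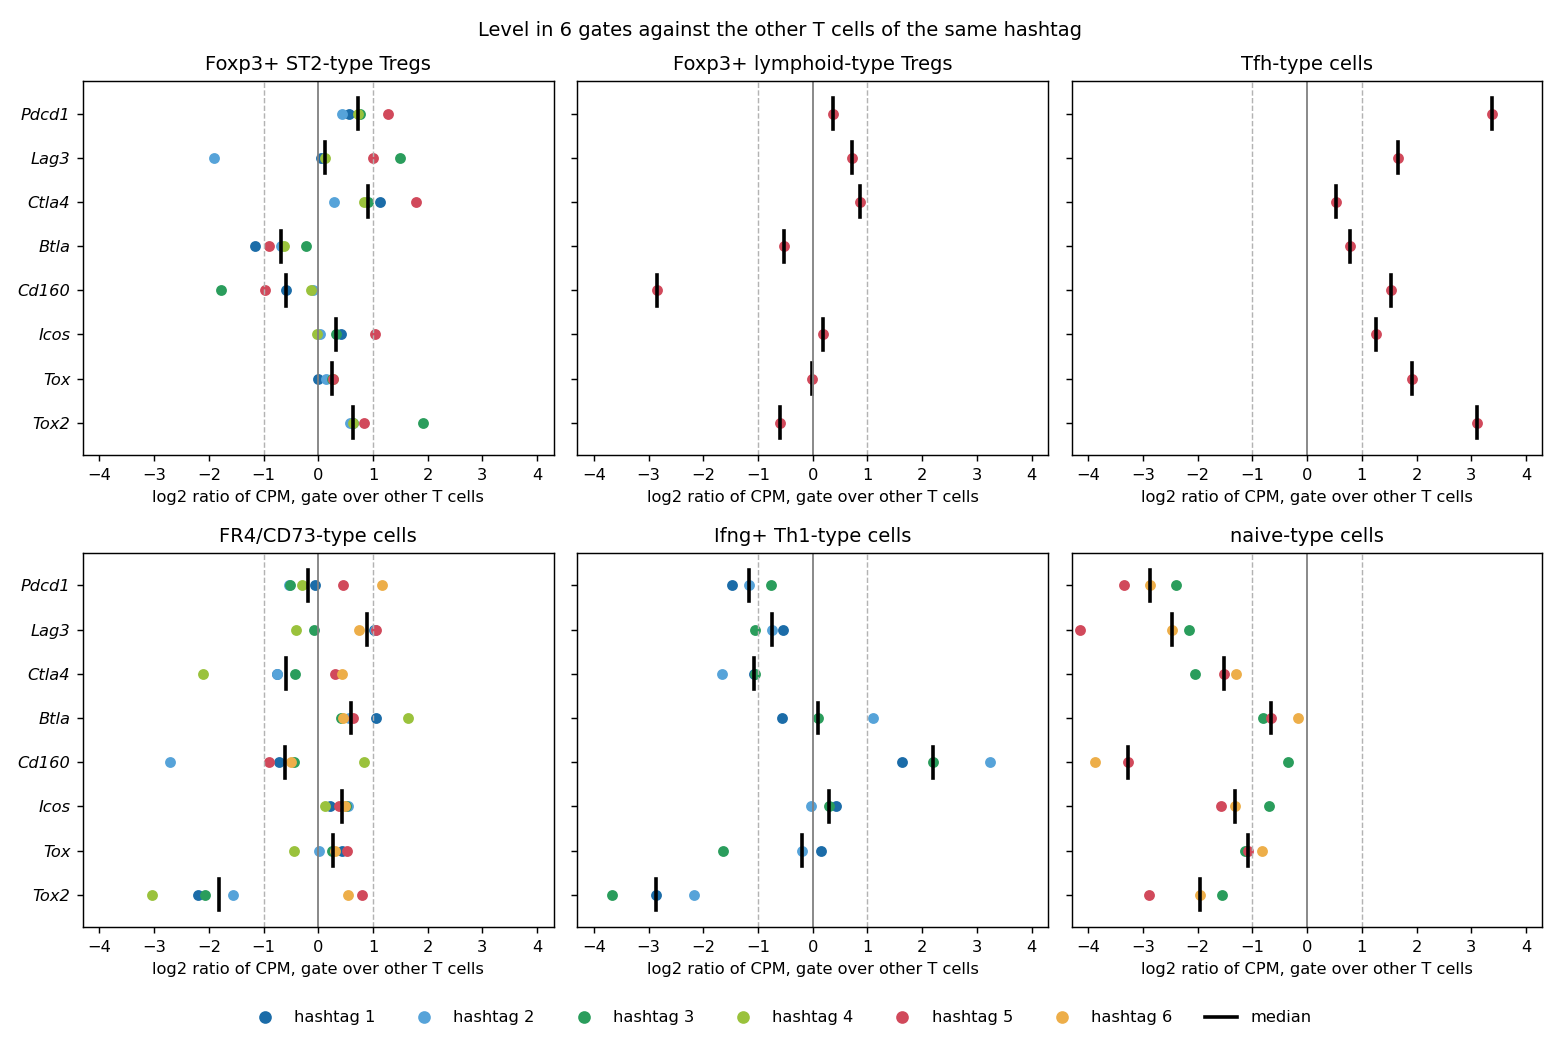
Log2 ratio of the level in a gate to that in the other T cells of the same hashtag (horizontal axes) for the 8 genes above the level filter (vertical axis), in 6 gates. Points are hashtags, black ticks medians, dashed lines the size of 1 needed for a call. In Tfh-type cells Pdcd1 and Tox2 lie above 3, and in naive-type cells all 8 genes lie below 0 in every hashtag.

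FR4/CD73-type cells, gated on the folate receptor gene Izumo1r, Nt5e and Slamf6, markers of anergic and memory-like CD4+ T cells, gave no call among the 8 genes over 6 hashtags, against 0.195% of 9214 genes higher and 1.25% lower. Btla (median 0.60, 0.42 to 1.64) and Icos (0.43, 0.13 to 0.54) were above 0 in 6 of 6 hashtags. Lag3 (0.88) was above 0 in 4 of 6. Tox2 had a median of -1.82 but was below 0 in hashtags 1 to 4 and above 0 in hashtags 5 and 6. Its level in the gate was 6.14, 12.8, 4.68, 4.26, 21.7 and 18.0 CPM in hashtags 1 to 6, so the last 2 were the higher ones. When cells were thinned to 2000 UMIs and gated again on the thinned counts, hashtags 2, 3 and 4 held 67, 97 and 64 cells of this gate, less than 200000 UMIs each. In hashtags 1, 5 and 6 Pdcd1 (1.27) and Lag3 (1.67) were called higher, where 1.43% of genes were higher and 0.502% lower, and Tox2 turned to 1.26, not called. The gate's cells and the hashtags used both changed in this version, and their part in it was not tested. Cd200 (1.45) was the 1 gene higher of 10 other inhibitory receptors, and Klrg1 (-4.02) the 1 lower. Lgals3 (-1.96), 1 of 6 ligands, and Eomes (-1.49) and Nr4a1 (-1.48), 2 of 17 factors, were lower. Klrg1 and Eomes are genes of earlier gates. None of 8 costimulatory and 14 signalling genes was called.

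In Ifng+ Th1-type cells of hashtags 1 to 3, 1 of 8 genes was called higher and 3 lower, against 1.53% of 9320 genes higher and 2.69% lower. The depth-scaled prior changed this background to 0.987% and 3.53%, and the 4 calls were kept. Cd160 was at 14.7, 34.2 and 10.4 CPM in the 3 hashtags (20.8 against 3.90 CPM, log2 ratio 2.19, 29 UMIs). Pdcd1 was at 20.8 against 50.5 CPM (-1.16), Ctla4 at 110 against 266 CPM (-1.07) and Tox2 at 4.3 against 31.4 CPM (-2.86). In these hashtags much of the comparison is with ST2-type cells, which are rich in Ctla4 and Tox2. Without the Foxp3-undetected ST2-type cells Cd160 stayed higher and Tox2 lower, and Pdcd1 and Ctla4 were not called. In 2 other versions (any top tag, gates taken without order) and with hashtags 4 to 6 added at 100000 UMIs, Cd160 alone was called. Of 8 costimulatory genes Cd40lg (CD40 ligand, 1.13) was higher, and Tnfrsf9 (-3.49, from 2 UMIs, -7.24 to -2.33) and Tnfrsf4 (-1.62) were lower. Of 11 other inhibitory receptors Klrg1 (-3.89) and Nt5e (-1.42) were lower, and of 15 factors Ikzf2 (-1.66) and Eomes (-1.10), all 4 of them genes of earlier gates. None of 7 ligands and 14 signalling genes was called.

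Naive-type cells had 7 of 8 genes lower, against 4.54% of 8968 genes lower and 0.212% higher, over hashtags 3, 5 and 6. Pdcd1 was at 4.91, 4.98 and 4.96 CPM in these hashtags, against 44.1 CPM in the other T cells (-2.88). Lag3 (-2.47), Tox2 (-1.95), Ctla4 (-1.51), Icos (-1.32), Tox (-1.08) and Cd160 (-3.27) were the other 6. The Cd160 ratio rests on 8 UMIs in the gate, and with hashtags 1 and 4 added at 100000 UMIs it was -0.35 and not called, nor was Icos (-0.90). Hashtag 3 held 58 of these cells, with 1 UMI of Pdcd1 and none of Cd160 or Lag3. Btla (-0.66) was below 0 in all 3 hashtags but not called. The median of all genes was -0.19 here. TMM scaling moved the background to 3.31% lower and 0.569% higher, and Tox was then no longer called (-0.91). The Tox call also ended without hashtag 3 (-0.96) or hashtag 5 (-0.98). The gate asks for no S100a4 UMI, a gene of activated cells. Of the lists, 9 of 17 factors were lower, led by Ikzf2 (-2.76), Maf (-2.65) and Tbx21 (-2.28). So were 5 of 10 other inhibitory receptors, led by Nt5e (-3.21), Klrg1 (-2.12) and Entpd1 (-2.04). Ikzf2, Tbx21, Nt5e and Klrg1 are genes of earlier gates, so they are low here partly by construction. Of 8 costimulatory genes Tnfrsf4 (-2.17), Tnfrsf9 (-1.93) and Tnfrsf18 (-1.03) were lower, of 6 ligands Pdcd1lg2 (-1.71), Cd86 (-1.23) and Lgals3 (-1.02), and of 14 signalling genes Ptpn11 (-1.09). None was higher.

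Over the 8 genes the median log2 ratio was 1.60 in Tfh-type cells, where that of all genes tested was 0.31, and -1.73 in naive-type cells, against -0.19. It was 0.29 against 0.05 in Foxp3+ ST2-type Tregs, 0.09 against 0.15 in Foxp3+ lymphoid-type Tregs, 0.05 against 0.01 in FR4/CD73-type cells and -0.46 against 0.04 in Ifng+ Th1-type cells. The 5 lists stayed closer to all genes in Tfh-type cells, at -0.28 for ligands, 0.40 for costimulatory genes, 0.37 for other inhibitory receptors, 0.38 for signalling genes and 0.60 for factors. In naive-type cells they were at -0.69, -0.68, -0.94, -0.36 and -1.14 in the same order. In the other 4 gates the list medians lay between -0.40 and 0.30, except for the ligands of Foxp3+ lymphoid-type Tregs at 0.95. Each ligand tested there had 12 UMIs or fewer in the gate.

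Over all T cells Ctla4 had the widest range of levels between hashtags. It was at 247, 305, 207, 262, 66.5 and 54.2 CPM in hashtags 1 to 6. The lowest of the first 4 (196 to 219) did not overlap hashtag 5 (62.4 to 70.9). The hashtags also differed in ST2-type cells without a Foxp3 UMI, of which they held 808, 784, 448, 621, 270 and 151. These were among 2818, 1945, 1802, 1537, 3767 and 3259 T cells. Within Foxp3-undetected ST2-type cells the levels were still 340, 411, 311, 338, 129 and 83.6 CPM. Hashtags 5 and 6 were again below the other 4, with no overlap of intervals. The gate's makeup moved with this. Il1rl1, the ST2 gene itself, was in 63.2% to 79.5% of its cells in hashtags 1 to 4. In hashtags 5 and 6 it was in only 35.6% and 38.4%, so most of their cells held no ST2 UMI. Klrg1 UMIs were in 74.1% to 83.3% of cells in hashtags 1 to 4 against 41.5% and 40.4%. Il2ra was in 41.3% to 57.6% against 24.8% and 17.9%. Areg was in 47.0% to 62.1% and Ikzf2 in 87.4% to 90.0% over all hashtags. The part of this makeup in the Ctla4 difference, or in hashtag differences of other genes in this gate, was not tested. In FR4/CD73-type cells Ctla4 was at 153, 185, 157, 63.8, 77.5 and 67.8 CPM, so there hashtag 4 (43.1 to 91.1) sat with hashtags 5 and 6. In naive-type cells Ctla4 was at 49.1, 26.9 and 26.2 CPM in hashtags 3, 5 and 6, with overlapping intervals.

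Cd160 and Btla went the other way. Cd160 was at 5.56, 5.53, 2.95, 4.26, 14.2 and 10.9 CPM over all T cells of hashtags 1 to 6, and the intervals of hashtags 5 and 6 lay above those of the other 4. In Ifng-undetected Th1-type cells it was at 5.73, 4.28, 3.18, 0, 40.4 and 34.8 CPM, from 5, 2, 2, 0, 21 and 14 UMIs. There the intervals of hashtags 5 (25.0 to 61.7) and 6 (19.1 to 58.5) stood above the highest of the others (1.86 to 13.4 in hashtag 1 and 0.518 to 15.5 in hashtag 2). Btla over all T cells was at 19.9, 18.4, 20.9, 17.7, 31.6 and 33.0 CPM, with the last 2 above the rest. In Foxp3-undetected ST2-type cells the Btla interval of hashtag 5 (29.1 to 52.6) lay above those of hashtags 1 to 4 (highest 11.6 to 20.8). Within FR4/CD73-type cells (25.6 to 46.8 CPM) and Ifng-undetected Th1-type cells (15 to 28.8 CPM) the Btla intervals of the lowest and highest hashtag overlapped, so there the hashtags were not separable.

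**Figure D3:**
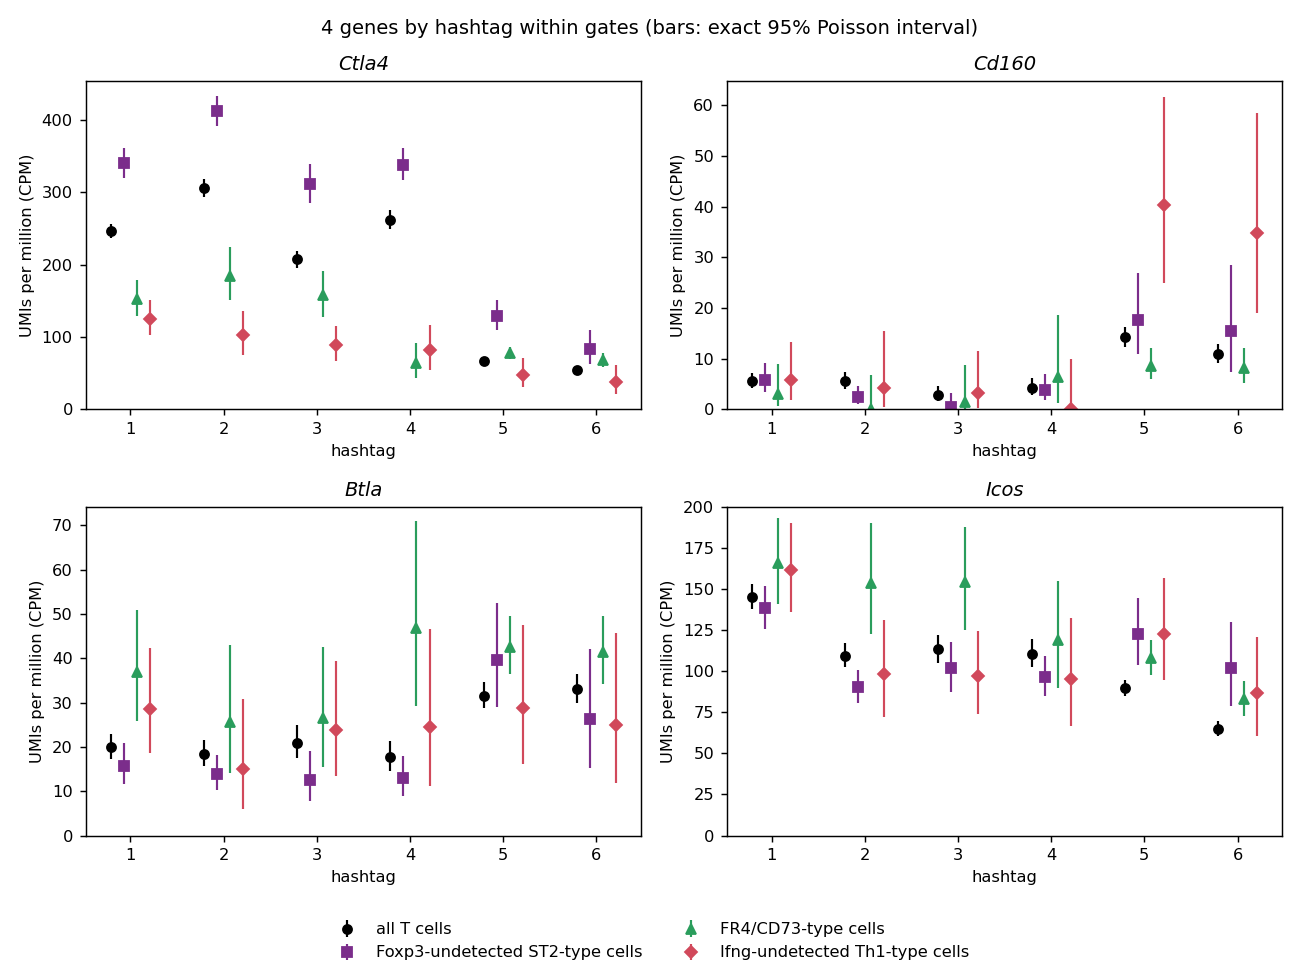
Ctla4, Cd160, Btla and Icos (panels, CPM on linear scales that differ) by hashtag (horizontal axis) in all T cells and 3 gates, with exact 95% Poisson intervals. Ctla4 in Foxp3-undetected ST2-type cells is 311 to 411 CPM in hashtags 1 to 4 and 129 and 83.6 CPM in hashtags 5 and 6, while Cd160 in Ifng-undetected Th1-type cells is highest in the last 2 (40.4 and 34.8 CPM).

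Tox2 over all T cells was at 28.0, 38.6, 20.9, 40.7, 15.1 and 13.7 CPM in hashtags 1 to 6. In proliferating cells hashtags 5 (16.6 CPM, 6.08 to 36.1) and 6 (12.6 CPM, 2.60 to 36.9) lay below hashtags 1, 2 and 4 (70.1, 70.0 and 104 CPM) with no overlap. The same held in Foxp3-undetected ST2-type cells (26.1 and 23.2 CPM against 46.5, 47.9 and 52.0 CPM). FR4/CD73-type cells went the other way, with 21.7 and 18.0 CPM in hashtags 5 and 6, though some intervals overlapped. In naive-type and Ifng-undetected Th1-type cells the Tox2 intervals of the hashtags compared overlapped. Pdcd1 over all T cells was at 58.8, 45.3, 37.5, 50.3, 42.2 and 28.2 CPM, highest in hashtag 1 and lowest in hashtag 6. Within Foxp3-undetected ST2-type cells the Pdcd1 levels lay closer together, at 62.9, 55.7, 42.2, 60.7, 53.0 and 60.4 CPM, and hashtag 6 was no longer low.

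Single hashtags stood apart for Icos and Lag3. Icos over all T cells was at 145 CPM (138 to 153) in hashtag 1, above 110 to 114 CPM in hashtags 2 to 4, 90.0 CPM in hashtag 5 and 64.9 CPM in hashtag 6. The same hashtag led within Foxp3-undetected ST2-type cells (139 CPM, 126 to 152, against 90.4 to 102 CPM in hashtags 2 to 4) and within Ifng-undetected Th1-type cells (161 CPM, 136 to 190, against 95.4 to 98.4 CPM). Hashtag 5 overlapped it in both gates (123 CPM in each), as did hashtag 6 in the first, and in proliferating cells Icos was at 82.9 to 117 CPM with no hashtag apart. Lag3 in Foxp3-undetected ST2-type cells was at 15.1, 16.5, 10.8, 15.2, 45.4 and 13.9 CPM, so hashtag 5 (34.1 to 59.3) was above the other 5. In FR4/CD73-type cells it was at 35.8, 27.5, 9.36, 8.51, 41.3 and 20.5 CPM, and hashtag 5 (35.2 to 48.2) did not overlap hashtag 6 (15.6 to 26.5). For Tox no single hashtag stood apart over all T cells. It was lowest in hashtag 3 (57.9 CPM, 52.1 to 64.3) and hashtag 6 (65.0 CPM, 60.5 to 69.7), which overlapped, and at 78.4 to 83.6 CPM in the others.

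Shares of cells with a UMI were compared after each cell was thinned to 2000 UMIs, with gates as set on the full counts, which left out 2409 of 15128 T cells. Pdcd1 was found in 47.6% (37.8 to 57.6) of thinned Tfh-type cells, 12.2% of Foxp3+ ST2-type Tregs, 8.65% of FR4/CD73-type cells and 1.21% of naive-type cells. Without thinning the shares were 57.0%, 23.4%, 12% and 1.83%. The endothelial-type reference gave 1.33% (0.276 to 3.85) after thinning and 6.61% before, at a median of 5182 UMIs against 3262.5 in T cells, so the naive-type share is at the reference level. Ctla4 was in 44.5% of thinned Foxp3+ ST2-type Tregs and 36.4% of Foxp3-undetected ST2-type cells, against 7.56% in the reference and 5.12% in naive-type cells. Tox was in 42.9% of Tfh-type and 28.6% of Gzmk/Eomes-type cells, against 8.44% in the reference. Thinned macrophage-type barcodes gave higher shares than this reference, with Pdcd1 in 4.98%, Ctla4 in 16.3% and Tox in 12.3%. All thinned T cells had 6.59%, 19.4% and 12.5%. Tigit (0.495% of all thinned T cells, reference 0.444%) could not be separated from stray RNA over all T cells. Neither could Havcr2, with a UMI in 0.278% of unthinned T cells against 0 of 242 endothelial-type barcodes, where the exact interval reaches 1.51%.

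Pairs of genes were counted in the same cell within strata of gate, hashtag and 5 depth bins, which yields 1 odds ratio for each of 45 pairs. Of the 34 pairs seen together in at least 20 cells, 14 had an odds ratio of at least 1.5. The median was 1.39 and the range 0.985 to 2.51. Pdcd1 was at the centre of the high pairs. It was found with Lag3 in 198 cells, where independence within strata gives 121 (odds ratio 2.42), with Tigit in 49 cells (2.51), with Tox2 in 327 cells (2.39) and with Tox in 629 cells (1.89). Lag3 with Tigit (2.43, 22 cells), Tigit with Tox (1.96, 65 cells) and Lag3 with Tox (1.86, 280 cells) were also high. Ctla4 and its neighbour Icos shared 1579 cells (1.59). Ctla4 with Btla (1.04, 371 cells) and with Cd160 (0.985, 90 cells) were near 1, as were Btla with Tox2 (1.09) and with Cd160 (1.09). Tox and Tox2 themselves reached only 1.31.

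**Figure D4:**
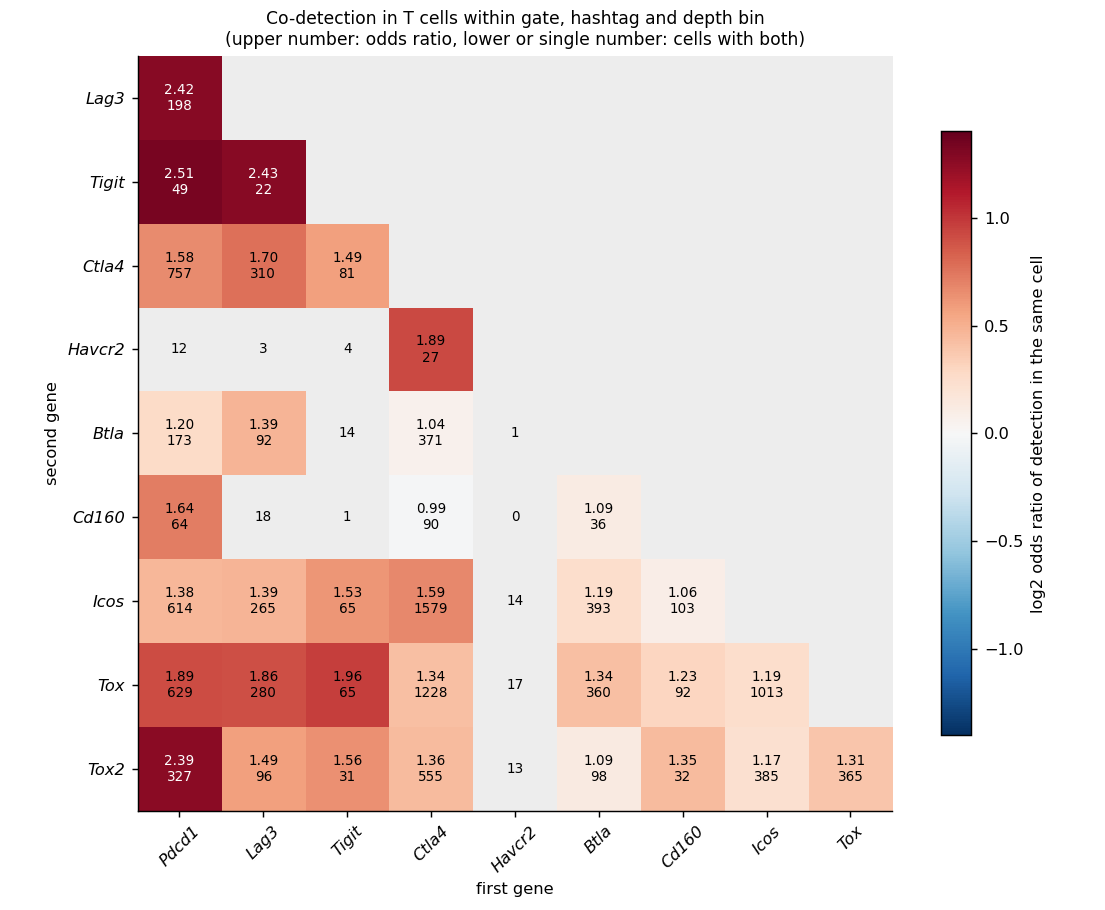
Odds ratio of finding 2 genes in the same T cell within gate, hashtag and depth bin (colour, log2 scale, upper number) and cells with both (lower number). Grey cells with a single number are pairs seen in fewer than 20 cells. The rows and columns of Pdcd1, Lag3 and Tigit hold the pairs above 2, and those of Btla stay at or below 1.39.

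Inside FR4/CD73-type cells 51 cells had both Pdcd1 and Tox2 where independence gives 15.9, an odds ratio of 6.09. It was 1.91 in Foxp3-undetected ST2-type cells (121 cells) and 1.76 in Foxp3+ ST2-type Tregs (50 cells). Pdcd1 with Tox was at 2.55 in FR4/CD73-type cells (130 cells) and at 1.5 in Foxp3-undetected ST2-type cells (177 cells). Pdcd1 with Lag3 was at 2.52 and 3.05 in the same gates. Whether these odds ratios differ between gates was not tested. Without the strata 26 of 34 pairs reached 1.5, and on thinned cells 12 of 26.

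The number of inhibitory receptors per cell was counted over the 7 inhibitory genes, again on thinned cells. At least 2 were found in 24.8% (16.9 to 34.1) of 105 Tfh-type cells, and at least 3 in 6 cells. In hashtag 5 the share was 21.9% and in hashtag 6 it was 31.4%, with overlapping intervals. Other Foxp3+ cells followed at 12.3% (6.08 to 21.5), then Foxp3+ ST2-type Tregs at 7.29%, NK-receptor type cells at 7.25% (2.39 to 16.1), Foxp3-undetected ST2-type cells at 6.65% and FR4/CD73-type cells at 5.78%. The intervals of these 5 gates overlapped, and that of other Foxp3+ cells also reached that of Tfh-type cells. Naive-type cells had 0.633% (0.317 to 1.13), and all T cells 4.36%. The endothelial-type reference had 1.33% (0.276 to 3.85) and macrophage-type barcodes 4.65%. Unthinned shares were 43.0% in Tfh-type cells, 25.2% in Foxp3+ ST2-type Tregs, 1.67% in naive-type cells and 7.02% in the endothelial-type reference.
The hashtags of Foxp3-undetected ST2-type cells, which differed so much in Ctla4, had shares of 6.20% to 7.72% with at least 2 receptors.

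**Figure D5:**
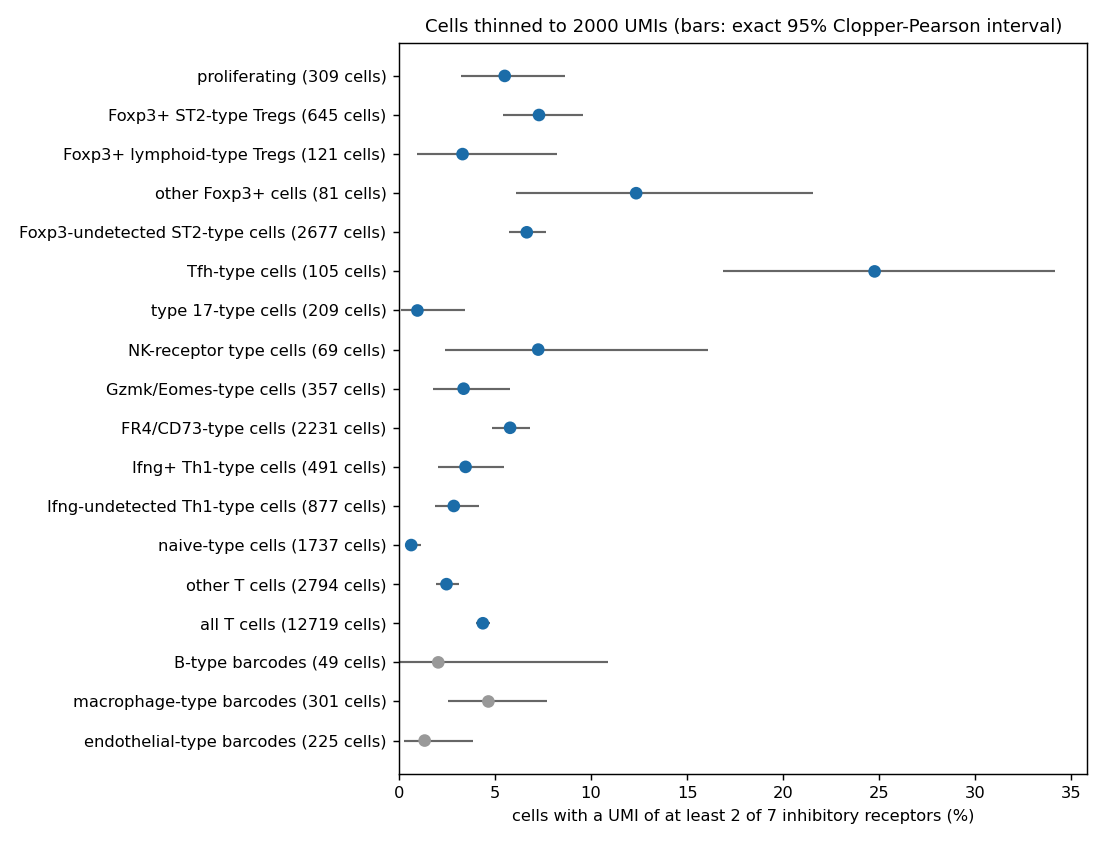
Share of cells with a UMI of at least 2 of the 7 inhibitory receptors (horizontal axis, percent) by gate (vertical axis, with the number of cells), after thinning to 2000 UMIs, with exact 95% Clopper-Pearson intervals. Grey points are barcodes outside the T cell gate. Tfh-type cells (24.8%) lie apart from the naive-type cells (0.633%) and from all T cells (4.36%).

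Genes whose pattern was most like each member were sought over 47 units of gate and hashtag with at least 200000 UMIs, among 9282 genes. Spearman correlations of log2(CPM + 10) are given as a description, since units share a library and some share a hashtag or gate. Ctla4 was most like Sh3bgrl (0.91), Tnfrsf18 (0.91), the gene of the costimulatory receptor GITR, and Gata3 (0.90). Pdcd1 was most like Ikzf2 (0.81), a marker of the ST2-type gate, Tox2 (0.80) and Vmp1 (0.78). Tox2 was most like Pdcd1, Nav2 (0.80) and Isg20 (0.79). Tox was most like Syt11 (0.69), Nab1 (0.68) and Lag3 (0.67), and Lag3 like Pou2f2 (0.71), Tox and Cacna1d (0.67). Icos was most like Malt1 (0.70), 6720464F23Rik (0.68) and Zranb1 (0.67), and Btla like 5830428M24Rik (0.71), Prkcq (0.70) and Tnfaip8l2 (0.68). Cd160 (H2aj 0.61, Ndufa3 0.59, Gng5 0.58), Tigit (Ypel2 0.70, Ttc39c 0.68, Dhrs7 0.66) and Havcr2 (Arl6ip1 0.61, Txndc12 0.59, Tmem140 0.59) rest on few UMIs in each unit. Among the 10 genes the lowest correlation was that of Ctla4 with Btla (-0.47), and Tox with Tox2 was at 0.49.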

How the data were processed

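Gene expression and hashtag counts were deposited by the authors as 1 matrix each, from 10x single cell 3' v3.1 libraries, per the labels' protocols. The expression values are UMI counts per gene and barcode as deposited, not normalized. Cell Ranger 6.0 and Seurat 3 stand in the submitters' processing notes with the build mm10, while the matrix header names cellranger 4.0.0. Strand and intron settings of the counting are not given in the sources used here. How doublets were treated before deposit is not given either.

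A barcode was kept if it had 500 or more genes and mitochondrial UMIs below 10% (21236 of 22960). A hashtag was called where the top of hashtags 1 to 6 had at least 10 counts and at least 2 times the next tag, which also removes barcodes with mixed tags, and no doublet caller was run. T cells had at least 2 UMIs of T cell receptor complex genes and at most 1 of B cell, macrophage, endothelial or stromal genes, and went to the first of 15 marker gates they met. Total UMIs of T cells were 6098465 to 14280376 by hashtag. Hashtags were not assigned to conditions and no samples serve as replicates, so no test was run. Ratios of UMI counts per 1000000 (CPM) used a prior count of 0.5, with TMM factors from edgeR 4.0.16 as an alternative. Seurat 5.3.0 gave HTODemux calls (quantile 0.99), another alternative. Co-detection odds ratios are Mantel-Haenszel estimates. Scripts ran in R 4.3.3 and Python 3.11.15 (scipy 1.17.1, matplotlib 3.10.9, numpy 2.4.6, pandas 2.3.3), and the ratio and odds-ratio steps were tested on simulated data.

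The genes named are the 10 genes, the 3 genes most like each, and up to 3 called genes of each of 5 lists. The 10 genes, the lists and the gates were chosen with earlier results of these data known. Alternatives changed the hashtag call, cell filter, depth (cells thinned and gated again on the thinned counts), gate order, prior count, gene filter, deep cells, hashtags used and scaling. The UMI minimum, the comparison without Foxp3-undetected ST2-type cells and the depth-scaled prior were added after the data were seen.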

Additional observations from a re-analysis of the deposited data

How the results depend on the processing

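Of the values recomputed, 939 kept their side and size, 80 moved and 1 reversed. In Ifng+ Th1-type cells the 4 calls became 1 with any top tag, 1 with gates taken without order and 1 at 100000 UMIs, and 2 without Foxp3-undetected ST2-type cells in the comparison. In naive-type cells the 7 calls became 4 with any top tag, 4 with gates taken without order, 5 at 100000 UMIs (without Cd160 and Icos) and 5 with a prior count of 2 (without Cd160 and Tox). The log2 ratio of Cd160 there ranged from -4.17 to -0.35 and that of Lag3 from -4.23 to -1.04. In Foxp3+ ST2-type Tregs no gene was called at first, but 2 were with HTODemux singlets (Ctla4 higher, Btla lower), 1 without cells above 3 times the median UMIs (Ctla4), 0 to 1 when each hashtag was left out in turn and 3 without Foxp3-undetected ST2-type cells. In FR4/CD73-type cells 0 calls became 2 with cells thinned and gated again. In Foxp3+ lymphoid-type Tregs the 1 call became 0 with gates taken without order and 0 with a prior count of 2, and 2 with no gene filter, where Havcr2 joined with 0 UMIs in the gate. The log2 ratio of Cd160 there turned to 0.054 with gates taken without order. Of 34 pairs the 14 with an odds ratio of at least 1.5 became 26 without strata. Except where the alternative itself removes cells, genes or hashtags, the cause was not tested.

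Every call but that of Cd160 in Foxp3+ lymphoid-type Tregs kept its sign in all settings that gave a value. In Tfh-type cells the log2 ratio of Pdcd1 ranged from 3.06 to 3.57, that of Tox2 from 2.78 to 3.54 and that of Cd160 from 0.16 to 1.70. Gating again on thinned counts left too few UMIs in the ST2-type Treg, lymphoid-type Treg and Tfh-type gates, HTODemux in the lymphoid-type gate, and leaving out hashtag 5 in the lymphoid-type and Tfh-type gates, so these gave no value. No paired analysis was possible because the series has 1 expression library and hashtags of unknown condition. Depth limits Tigit and Havcr2 throughout, and Cd160 and Lag3 in small gates.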
